A study of Mus musculus with 15 samples.

Results

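Transcripts of 9 genes were followed in the blood of 15 mice: the S100 genes S100a8, S100a9, S100a6, S100a11 and S100a4, and the stefin A genes Stfa1, Stfa2, Stfa2l1 and Stfa3. The genes were chosen by name and not by a threshold on any value, but with earlier results of these data known. They are parts of their families, and other S100 and stefin genes are described further on. Each of the 9 was found among the 55416 gene identifiers of the count tables. Whole blood came from female wild-type C57BL/6 mice, 4 to 6 weeks old per the study's methods, as 1 library of total RNA per mouse. In 5 mice, here called early, 2 doses of αCTLA-4 (an antibody that blocks the T cell checkpoint receptor CTLA-4) were followed by neck dissection (ND), the surgical removal of the cervical lymph nodes, on day 6 after tumor transplantation. In 5 mice, called late, the same 2 doses were followed by ND planned for day 11. The remaining 5 mice, called untreated, received neither antibody nor surgery. The tumors were 4MOSC1, a mouse oral squamous carcinoma line, placed in the tongue and grown for 10 days, and the labels give this growth protocol for untreated mice as well. The study's sources place the bleed both on day 10, ahead of the late ND, and after it, so that "late" names a group and not a time since surgery. The study compared late with early mice to ask how the timing of ND relative to αCTLA-4 bears on the blood transcriptome. If the bleed came ahead of the late ND, late mice were not yet operated on when bled. Without a group given αCTLA-4 alone, timing of ND and presence of ND cannot be told apart. The untreated mice serve as a further reference.

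S100 proteins are small calcium-binding proteins. S100a8 and S100a9 pair to form calprotectin, which fills the cytosol of neutrophils and, to a lesser degree, monocytes, and acts as an alarmin when released, through receptors that include Tlr4 and Ager. Stefins A are intracellular inhibitors of cysteine cathepsins, and the mouse carries a cluster of them, of which several are transcribed in neutrophils and their bone marrow precursors.

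The libraries held between 5527108 and 13924361 counts on genes (median 6810637). Every late library held more than every early library, and hemoglobin genes took 14.9 to 29.3% of their gene counts, against 38.3 to 64.1% in early and 31.6 to 61.7% in untreated libraries. Libraries untreated 2, late 2 and late 3 were poor in 18S ribosomal sequence, with 313 to 766 CPM (counts scaled to a common library total), while the other 12 had 13402 or more. Levels below are CPM normalized by the trimmed mean of M-values (TMM), a scaling that discounts the most abundant and most variable genes. The blood label was checked against marker lists. All 8 neutrophil genes were detected in each group, with summed levels of 1653 to 3969 CPM in early, 2229 to 4377 in untreated and 3161 to 6471 in late mice. Of 11 keratinocyte genes, Krtdap was at 0 in every group, the group means of Krt5 and Krt14 lay between 0.086 and 0.81 CPM, and the whole list summed to 2.88 to 19.8 CPM per library. Genes of the sebaceous gland, a tissue that a bleed from the cheek can touch, summed to 192 to 2385 CPM, with the highest values in untreated 5 (2385 CPM), late 5 (1599 CPM) and early 3 (1353 CPM).

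S100a8 (ENSMUSG00000056054) and S100a9 (ENSMUSG00000056071) lie on chromosome 3 of GRCm39, at chr3:90567118-90578128 on the plus strand and chr3:90599931-90603071 on the minus strand. S100a8 stood at 2093, 2886, 1050, 3124 and 2338 CPM in untreated mice 1 to 5. The early mice had 819, 463, 1594, 684 and 1552 CPM. The late mice had 2439, 1195, 2670, 3755 and 1674 CPM. Every early mouse lay below the untreated median, and 4 of 5 late mice lay above every early mouse, with late 2 falling inside the early range. The group means were 2298 ± 811 (SD, n = 5) in untreated, 1023 ± 518 (SD, n = 5) in early and 2347 ± 984 (SD, n = 5) in late mice. S100a9 stood at higher levels in the same mice, with 3422, 4484, 1734, 4625 and 3561 CPM in untreated mice 1 to 5. Its early values were 1275, 756, 2422, 1136 and 2826 CPM, and its late values 3908, 1794, 3803, 5383 and 2486 CPM. Here 3 of 5 late mice lay above every early mouse. Counts of the pair together made up 0.0914% (early 4) to 1.14% (late 4) of all gene counts in a library, and for late 4 the 95% Wilson interval ran from 1.13 to 1.14%. This interval covers counting error only, since reads without molecular identifiers are not independent molecules. In bulk blood, fewer cells of a type and less RNA per cell cannot be told apart.

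**Figure D1:**
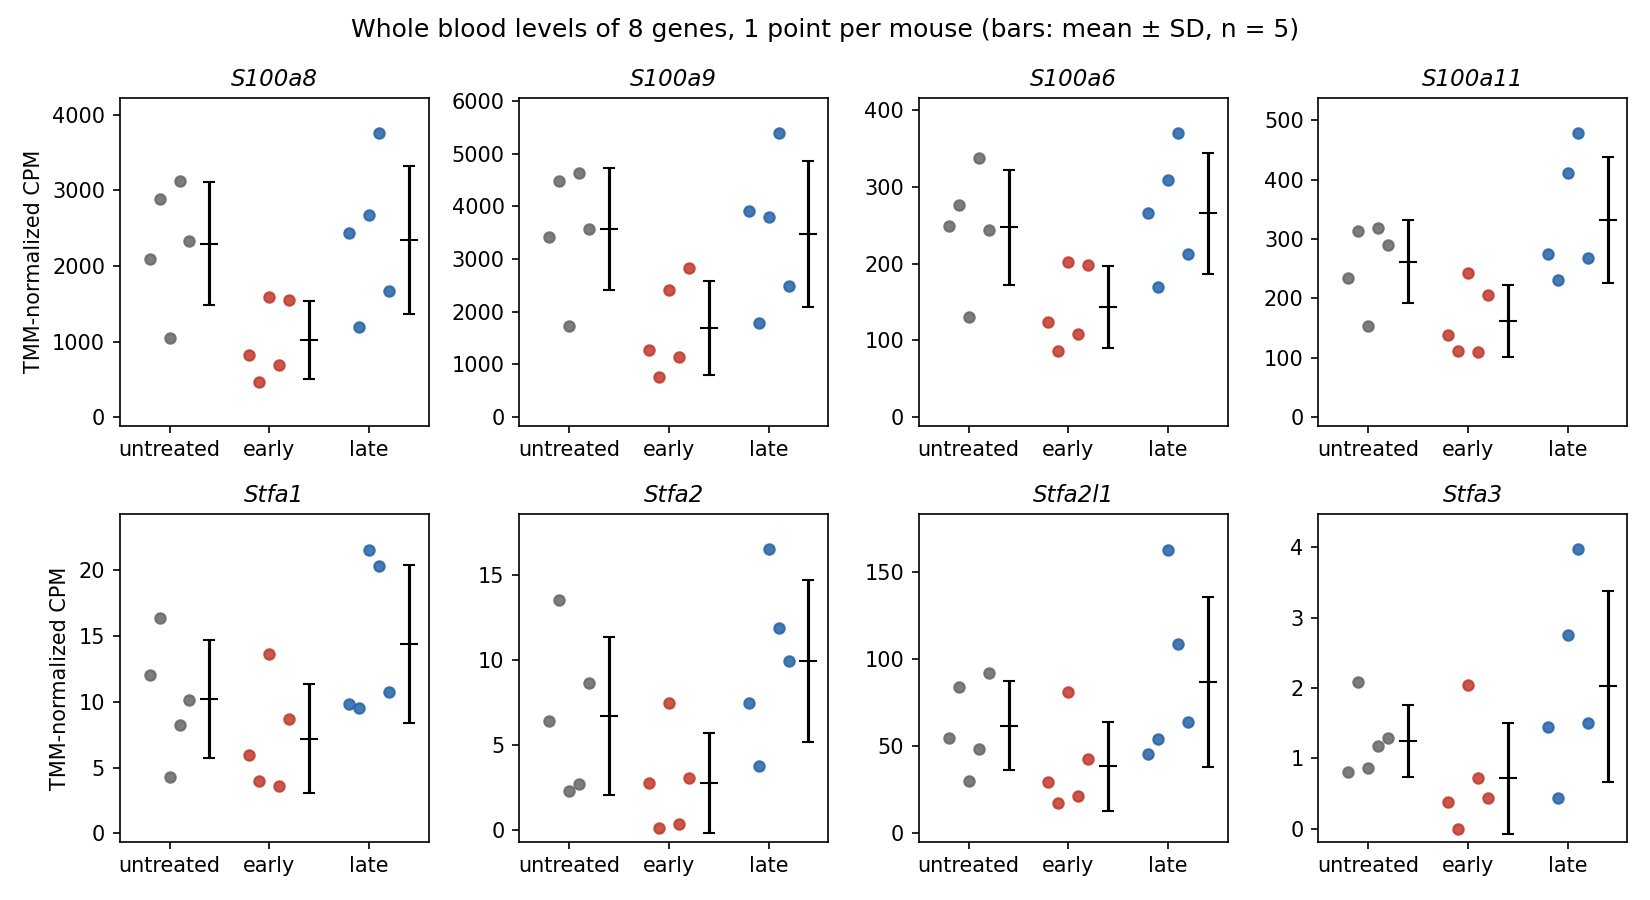
TMM-normalized CPM (vertical axes) of 8 genes in untreated, early and late mice (horizontal axes), with 1 point per mouse and the mean ± SD of 5 mice beside each group. Early means are the lowest of the 3 in every panel, the groups overlap in every panel, and early 3 and early 5 are the upper points of the early group for the S100 genes.

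S100a8 was higher in late than in early mice by a log2 fold change of 1.21 (SE 0.39), or 2.31-fold, and S100a9 by 1.06 (SE 0.40), or 2.08-fold. Neither passed the threshold of 0.05 in the quasi-likelihood test of edgeR, adjusted by Benjamini-Hochberg for 13315 genes (adjusted p = 0.0865 for S100a8 and 0.133 for S100a9). With the Wald test of DESeq2, the tool used by the study, the adjusted p-values were 0.0187 for S100a8 and 0.0477 for S100a9, both past the threshold, and DESeq2 called 5.78% of all genes higher in late mice. Against untreated mice, late mice differed by 0.02 (SE 0.34) in S100a8 and -0.04 (SE 0.34) in S100a9 on the log2 scale, values whose sign depended on the setting. Early mice stood lower than untreated mice, with log2 fold changes of -1.17 (SE 0.39) in S100a8 and -1.08 (SE 0.39) in S100a9 and an edgeR adjusted p of 0.938 for each, the smallest value that any of the 12151 genes of that comparison reached. The unadjusted p-values were 0.0100 for S100a8 and 0.0165 for S100a9 in that edgeR fit.

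The next S100 genes were expressed at levels an order of magnitude lower. S100a6 (ENSMUSG00000001025, chr3:90520140-90535843, plus strand), which encodes calcyclin, a partner of annexins, had 249, 276, 130, 337 and 244 CPM in untreated mice 1 to 5. It had 124, 86.1, 203, 109 and 198 CPM in early mice and 266, 169, 309, 369 and 213 CPM in late mice, so that 4 of 5 late mice exceeded every early mouse. Late mice were higher than early mice by 0.90 (SE 0.27), which passed with DESeq2 (adjusted p = 0.0227) and not with edgeR (adjusted p = 0.0703). S100a11 (ENSMUSG00000027907, chr3:93414382-93435293, plus strand), which binds annexin A1 and takes part in membrane repair, had 234, 314, 153, 318 and 289 CPM in untreated mice. Its early values were 139, 111, 243, 109 and 206 CPM and its late values 274, 231, 411, 478 and 268 CPM. The groups overlapped at late 2 and early 3 alone. S100a11 rose by 1.05 (SE 0.27), or 2.07-fold, from early to late mice and was the only member called by edgeR (adjusted p = 0.0471), where 2.50% of all genes were called higher. DESeq2 called it as well (adjusted p = 0.00569), so that its 4 calls among the members were the 4 S100 genes tested. The edgeR call was lost when any of early 1, early 2, early 4, late 1, late 3, late 4 or late 5 was left out, while the log2 fold change stayed between 0.87 and 1.26. Of the windows of the canonical S100a11 transcript, 5.42% at 150 bases and 11.8% at 50 bases were shared with other annotated genes, processed pseudogenes among them. The share of S100a11 reads that this leaves uncertain was not measured. Both genes were lower in early than in untreated mice, with log2 fold changes of -0.78 (SE 0.28) for S100a6 and -0.70 (SE 0.27) for S100a11, without passing adjustment (edgeR adjusted p = 0.938 for each).

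S100a4 (ENSMUSG00000001020, chr3:90511074-90513354, plus strand), which encodes metastasin, received 0 to 6 counts per library and was too low to enter the edgeR fit of any comparison. Its counts were 3, 3, 0, 2 and 1 in untreated mice 1 to 5, 2, 0, 0, 0 and 2 in early mice and 2, 4, 5, 6 and 3 in late mice. Of the 503 bases of its canonical transcript, 60.0% lie inside exons of Gm42674, an annotated gene on the same strand that had 0 counts in all 15 libraries. Of its coding bases the overlap takes 94.7%. HTSeq-count by default assigns no gene to a read pair that falls on 2 genes, and whether that default was used is not stated in the sources used here. The near absence of S100a4 counts therefore says nothing about its transcript, and no direction was read from it, although its ratio to S100a8 is counted among the ratio tests described further on.

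The 4 stefin A genes lie within a cluster on chromosome 16 and were far less abundant than the S100 pair. Stfa2l1 (ENSMUSG00000059657, chr16:35977176-35982332, plus strand) led them with 55.0, 83.7, 29.9, 48.6 and 92.2 CPM in untreated mice 1 to 5. It had 29.4, 17.7, 81.0, 21.2 and 42.7 CPM in early mice and 45.8, 54.2, 163, 109 and 63.9 CPM in late mice. Early 3 stood above 3 of the 5 late mice, and the groups overlapped widely. Stfa1 (ENSMUSG00000071562, chr16:36093823-36105817, plus strand) ranged from 3.60 to 13.6 CPM in early (median 5.96), 9.53 to 21.5 in late (median 10.7) and 4.31 to 16.4 in untreated mice (median 10.1). Stfa2 (ENSMUSG00000022902, chr16:36224305-36241288, minus strand) had 2.30 to 13.5 CPM in untreated mice (median 6.42). Its early values were 2.79, 0.165, 7.50, 0.360 and 3.05 CPM, of which early 2 and early 4 each rest on 1 count, and its late values were 7.51, 3.79, 16.5, 11.9 and 9.99 CPM. The highest and lowest of the 15 libraries thus differed 100-fold in Stfa2, against 8.10-fold in S100a8 and 4.29-fold in S100a6. Stfa3 (ENSMUSG00000054905, chr16:36270893-36275884, minus strand) had 0 to 63 counts per library, with group means of 0.72 ± 0.79 CPM (SD, n = 5) in early, 1.24 ± 0.51 CPM (SD, n = 5) in untreated and 2.02 ± 1.36 CPM (SD, n = 5) in late mice.

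Late mice stood higher than early mice in each stefin A gene, and none of the 4 was called by edgeR or by DESeq2. The log2 fold changes were 1.18 (SE 0.44, edgeR adjusted p = 0.125) for Stfa2l1 and 0.98 (SE 0.36, adjusted p = 0.126) for Stfa1. They were 1.72 (SE 0.59, edgeR adjusted p = 0.103) for Stfa2 and 1.42 (SE 0.72, adjusted p = 0.258) for Stfa3. Against untreated mice the late values were 0.45 to 0.54 higher on the log2 scale in the 4 genes, with standard errors of 0.33 to 0.51 and the smallest edgeR adjusted p at 0.539. For early against untreated mice the log2 fold changes of Stfa1, Stfa2 and Stfa2l1 were -0.50 (SE 0.39), -1.23 (SE 0.68) and -0.68 (SE 0.41), and Stfa3 was too low to enter that edgeR fit.

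The coding sequences show how far reads can separate these neighbors. The first 90 coding bases of 3 stefin A genes are set out here, 5′ to 3′ from the GENCODE M39 transcripts, because their near identity bears on the counts. Capitals mark the 16 positions at which the 3 sequences are not all alike.
Stfa2: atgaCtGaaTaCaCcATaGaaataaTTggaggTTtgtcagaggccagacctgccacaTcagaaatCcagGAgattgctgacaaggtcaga
Stfa2l1: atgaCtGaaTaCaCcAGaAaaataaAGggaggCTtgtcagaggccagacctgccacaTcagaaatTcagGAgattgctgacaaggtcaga
Stfa3: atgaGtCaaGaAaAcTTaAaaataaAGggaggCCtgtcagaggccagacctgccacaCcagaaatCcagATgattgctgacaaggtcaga
Over their full coding sequences of 312 bases, Stfa2 and Stfa2l1 were 96.5% identical, and Stfa3 was 81.1% identical to Stfa2 and 81.7% to Stfa2l1. At 150 bases, the length of each read, no window of a stefin A canonical transcript occurred in another gene. At 50 bases, 91 of 379 windows of Stfa2l1 did, as did 17.5% of those of Stfa1 and 14.6% of those of Stfa2. The levels of Stfa1, Stfa2 and Stfa2l1 are therefore uncertain to the extent that shorter aligned stretches fell on shared windows. Pairs aligned to several places were left out of the counts. Part of an exon of Stfa2 is also covered on the same strand by Gm49652.

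The region just ahead of the transcription start is set out for the most abundant alarmin pair and the stefin A cluster. This choice does not follow likeness in the mice. Over the 15 libraries the log2 CPM of S100a8 followed S100a6 (Pearson r = 0.992) more closely than any stefin A gene (highest for Stfa2, r = 0.843). The 200 bases before the annotated start are given 5′ to 3′ on the gene's own strand from RefSeq, in GRCm38.p6 coordinates that differ from those of the count tables. They are chr3:90668871-90669070 (plus strand) for S100a8, chr3:90695722-90695921 (minus strand) for S100a9, chr16:36276948-36277147 (plus strand) for Stfa1, chr16:36408364-36408563 (minus strand) for Stfa2, chr16:36156611-36156810 (plus strand) for Stfa2l1 and chr16:36455393-36455592 (minus strand) for Stfa3. Capitals mark each match, on either strand, to the core promoter box TATAAA, its variant TTTAAA, TTNNGCAA and TGNNGCAA (half-site patterns of the C/EBP factors) and GAGGAA (a core bound by PU.1), and adjoining matches run together.
S100a8: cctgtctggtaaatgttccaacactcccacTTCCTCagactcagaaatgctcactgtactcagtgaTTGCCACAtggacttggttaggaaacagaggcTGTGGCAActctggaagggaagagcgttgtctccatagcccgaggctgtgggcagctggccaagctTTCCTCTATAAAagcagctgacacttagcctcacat
S100a9: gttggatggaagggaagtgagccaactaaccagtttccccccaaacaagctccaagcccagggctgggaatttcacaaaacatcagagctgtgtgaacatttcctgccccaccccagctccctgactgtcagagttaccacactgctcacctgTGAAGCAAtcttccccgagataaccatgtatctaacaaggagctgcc
Stfa1: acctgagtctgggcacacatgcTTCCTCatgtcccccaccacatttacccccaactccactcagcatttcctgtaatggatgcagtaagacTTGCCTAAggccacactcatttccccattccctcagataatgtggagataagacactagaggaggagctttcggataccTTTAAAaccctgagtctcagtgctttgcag
Stfa2: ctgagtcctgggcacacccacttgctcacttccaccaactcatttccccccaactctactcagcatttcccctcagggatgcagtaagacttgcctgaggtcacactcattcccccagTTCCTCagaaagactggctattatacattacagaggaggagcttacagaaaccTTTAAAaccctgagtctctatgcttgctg
Stfa2l1: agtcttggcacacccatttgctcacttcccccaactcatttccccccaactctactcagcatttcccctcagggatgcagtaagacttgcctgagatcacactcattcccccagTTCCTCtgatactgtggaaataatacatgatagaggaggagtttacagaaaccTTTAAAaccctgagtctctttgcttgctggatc
Stfa3: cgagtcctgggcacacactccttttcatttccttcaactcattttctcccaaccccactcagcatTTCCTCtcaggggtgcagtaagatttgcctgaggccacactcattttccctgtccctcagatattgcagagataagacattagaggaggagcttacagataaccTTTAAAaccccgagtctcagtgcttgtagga
The 4 stefin A promoters were 78.0 to 88.2% identical to each other, and all 4 held TTTAAA between 33 and 24 bases ahead of the start, while 9.37% of 27025 promoters held it anywhere within the 200 bases. S100a8 held TATAAA 30 to 25 bases ahead of its start, as 10.6% of promoters do within the 200 bases, and S100a9 did not. Both S100a8 and S100a9 held TGNNGCAA (7.81% of promoters), Stfa1 held TTNNGCAA (7.47% of promoters), and GAGGAA was present in S100a8 and all 4 stefin A promoters (18.9% of promoters). Of the S100 members not set out, S100a11 also held GAGGAA, S100a4 held TATAAA, and S100a6 held no match to any of the patterns. S100a8 and S100a9 were 47.8% identical over these bases. The patterns were chosen with the sequences in view, and a match is a description of letters, not of a bound site.

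Taken over the members, late against early mice was the comparison with the largest median difference. Of the 9 genes 8 entered the edgeR fit, and all 8 had a positive log2 fold change (51.8% of all genes tested did), with a median of 1.12 against 0.01 for all genes. By edgeR 1 of 8 was called higher, S100a11 (2.50% of all genes). Without adjustment 7 of 8 had a p under 0.05 in the higher direction, against 14.4% of all genes, and Stfa3 did not. In no member did the 2 groups fail to overlap, whereas they did not overlap, with late higher, in 2.94% of all genes. With the libraries poor in 18S sequence left out, which removes late 2 and late 3 and leaves 3 late against 5 early mice, the median of the 8 members was 1.15, and edgeR called 0 of them and 4 genes in all (0.0298%). Early 3 was the early library with the highest sum of sebaceous genes (1353 CPM) and also the highest sum of neutrophil genes (3969 CPM). With early 3 left out the median was 1.41 and 6 of 8 members were called, where 7.73% of all genes were called higher. Late 5 had a higher sum of sebaceous genes (1599 CPM). With late 5 left out the median was 1.20 and 0 were called, where 0.497% of all genes were called higher. With late 4 left out the median was 0.92 and 0 were called, where 0.268% of all genes were called higher.

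**Figure D2:**
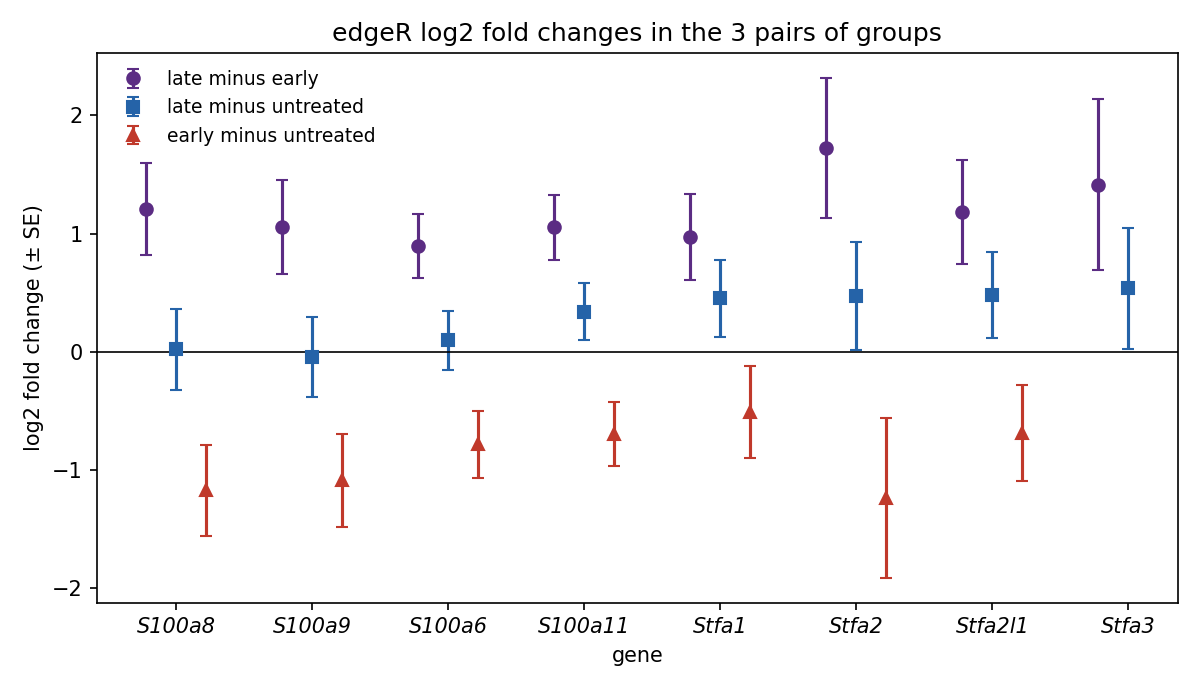
Log2 fold change from edgeR (vertical axis, bars ± SE) of 8 genes (horizontal axis) for late minus early, late minus untreated and early minus untreated mice, 5 mice per group. Late minus early lies between 0.90 and 1.72 and late minus untreated between -0.04 and 0.54. Stfa3 has no point for early minus untreated, where it was not tested.

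Between late and untreated mice edgeR called 0 of 8 members (0.989% of all genes were called higher) and DESeq2 called 0 (2.01% of all genes). An unadjusted p under 0.05 was reached by 0 of 8 (8.69% of all genes in the higher direction), and 7 of 8 log2 fold changes were positive (50.4% of all genes), with a median of 0.40. Between early and untreated mice 0 of 7 members were called by edgeR or DESeq2 (0.00% of all genes were, by either), all 7 log2 fold changes were negative (50.4% of all genes were) with a median of -0.78, and 4 of 7 had an unadjusted p under 0.05, against 2.33% of all genes in the lower direction. Those 4 were S100a8, S100a9, S100a6 and S100a11. The 3 comparisons share their groups of mice and are not independent of each other.

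Levels per kilobase of the canonical transcript allow the genes to be set in order. S100a9 was the highest in all 15 libraries, at 5083 ± 2452 CPM per kilobase (SD, n = 15), and S100a8 was second in all 15 at 3840 ± 1975 (SD, n = 15). S100a6 followed in all 15 at 281 ± 109 CPM per kilobase. Stfa2l1 at 146 ± 89.9 CPM per kilobase exceeded S100a11 at 108 ± 44.8 in 12 of 15 libraries, an order that turns on the length taken for S100a11, whose canonical transcript of 2328 bases is far longer than the 297 coding bases. Stfa1 and Stfa2 did not separate, at 12.5 ± 6.48 and 12.5 ± 9.49 CPM per kilobase, with Stfa1 the higher in 10 of 15. This too turns on the lengths taken, 849 bases for Stfa1 and 520 for Stfa2. Before division by length the mean of Stfa1 was the higher, at 10.2 against 6.72 CPM in untreated, 7.17 against 2.77 in early and 14.4 against 9.95 in late mice. Stfa3 was the lowest of the genes that could be tested, at 2.42 ± 1.91 CPM per kilobase.

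Ratios within a library are free of the scaling between libraries, and they set the members against each other. The S100a9 count was 142 to 182% of the S100a8 count, so that across libraries that differed 8.10-fold in S100a8 this ratio varied 1.28-fold. It was 149 ± 7.13% (SD, n = 5) in late, 164 ± 11.7% (SD, n = 5) in early and 157 ± 7.27% (SD, n = 5) in untreated mice. On the log2 scale late minus early was -0.14, which did not pass adjustment (p = 0.0397 by exact permutation, two-sided, adjusted p = 0.190 over 24 tests). S100a6 was 12.7 to 18.6% of S100a8 in early mice and 9.56 to 12.4% in untreated mice, higher in 5 of 5 early mice than in any untreated mouse, a log2 difference of 0.44 (p = 0.00794 by exact permutation, the smallest that 5 against 5 allows, adjusted p = 0.190). S100a11 stood 0.51 higher relative to S100a8 in early than in untreated mice, with 4 of 5 above every untreated mouse (p = 0.0159 by exact permutation, adjusted p = 0.190). Stfa1 stood 0.68 higher (p = 0.0397 by exact permutation, adjusted p = 0.190). Stfa2 relative to S100a8 was 1.27 higher in late than in early mice (p = 0.0873 by exact permutation, adjusted p = 0.299). Stfa2l1 relative to S100a8 ran from 1.55 to 6.09% over all mice, with late and early means 0.02 apart on the log2 scale. Of the 24 ratios tested, 8 genes in 3 pairs of groups with S100a4 among them, 0 passed adjustment. With 5 mice against 5, at least 4 of the 24 ratios would have had to separate completely for any to pass, so that this count says little about the ratios.

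**Figure D3:**
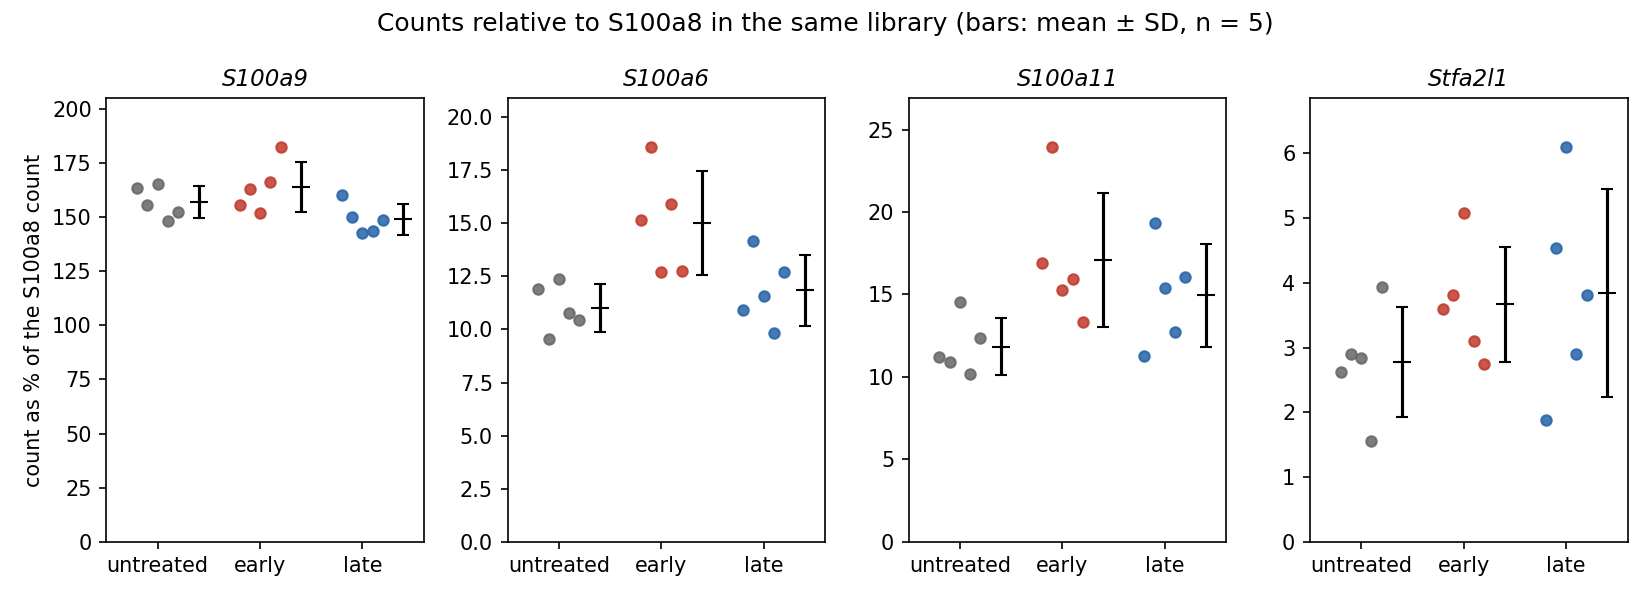
Counts of 4 genes as a percentage of the S100a8 count in the same library (vertical axes) in untreated, early and late mice (horizontal axes), with 1 point per mouse and the mean ± SD of 5 mice. S100a9 keeps within 142 to 182% in all 15 mice, and all 5 early points of S100a6 lie above the untreated points.

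The genes whose log2 CPM followed S100a8 most closely over the 15 libraries, among the 9447 genes that averaged 50 counts or more, were Trem1 (Pearson r = 0.983), Fpr1 (r = 0.983), Fpr2 (r = 0.982), Dhrs9 (r = 0.974) and Ifitm1 (r = 0.973). Trem1 encodes a receptor that amplifies inflammation, and Fpr1 and Fpr2 encode formyl peptide receptors of phagocytes. Closest to Stfa2l1 were Cstdc4 (r = 0.959), a stefin-like gene of the same cluster, Gm46603 (r = 0.954), Siglece (r = 0.952), Pi16 (r = 0.950) and Slpi (r = 0.948), an inhibitor of neutrophil elastase. These coefficients are given as a description, since the libraries share differences in hemoglobin share and depth and the genes were picked for their likeness. Trem1 is also a gene of the neutrophil list.

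The neutrophil genes had values of the same sign. All 8 had a positive log2 fold change from early to late mice (median 1.02), 0 were called, and Retnlg (1.42, SE 0.39, edgeR adjusted p = 0.0535) and Csf3r (0.87, SE 0.29, edgeR adjusted p = 0.0936) were among the most abundant. Set against the summed neutrophil genes of the same library, S100a8 was 28.0 to 55.5% in early (median 38.3%), 37.8 to 58.0% in late (median 48.7%) and 47.1 to 72.2% in untreated mice (median 66.4%). The medians for Stfa2l1 were 1.38% in early, 1.71% in late and 1.90% in untreated mice, with ranges that overlapped in every pair of groups. Whether neutrophil number accounts for the levels of the members was not tested. Of 6 immature neutrophil genes tested from early to late mice, 4 were positive, with a median of 0.79 and 0 called. From untreated to late mice 3 of 6 were positive, and the median was 0.04. Chil3 (1.43, SE 0.29, edgeR adjusted p = 0.0261) and Prtn3 (1.61, SE 0.39, edgeR adjusted p = 0.0475) rose. Lcn2 was 0.46 higher (SE 0.37, edgeR adjusted p = 0.592) and Ngp stood at -0.38 (SE 0.60, edgeR adjusted p = 0.824). Camp and Ltf, named here after their values were seen, stood at -0.90 (SE 0.63, edgeR adjusted p = 0.526) and -0.50 (SE 0.64, edgeR adjusted p = 0.775). Of 9 monocyte genes Vcan (1.40, SE 0.29, edgeR adjusted p = 0.0239), Csf1r (0.75, SE 0.19, edgeR adjusted p = 0.0425) and Fn1 (1.64, SE 0.25, edgeR adjusted p = 0.0126) rose from early to late mice, and their part in the values of the members was not tested.

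**Figure D4:**
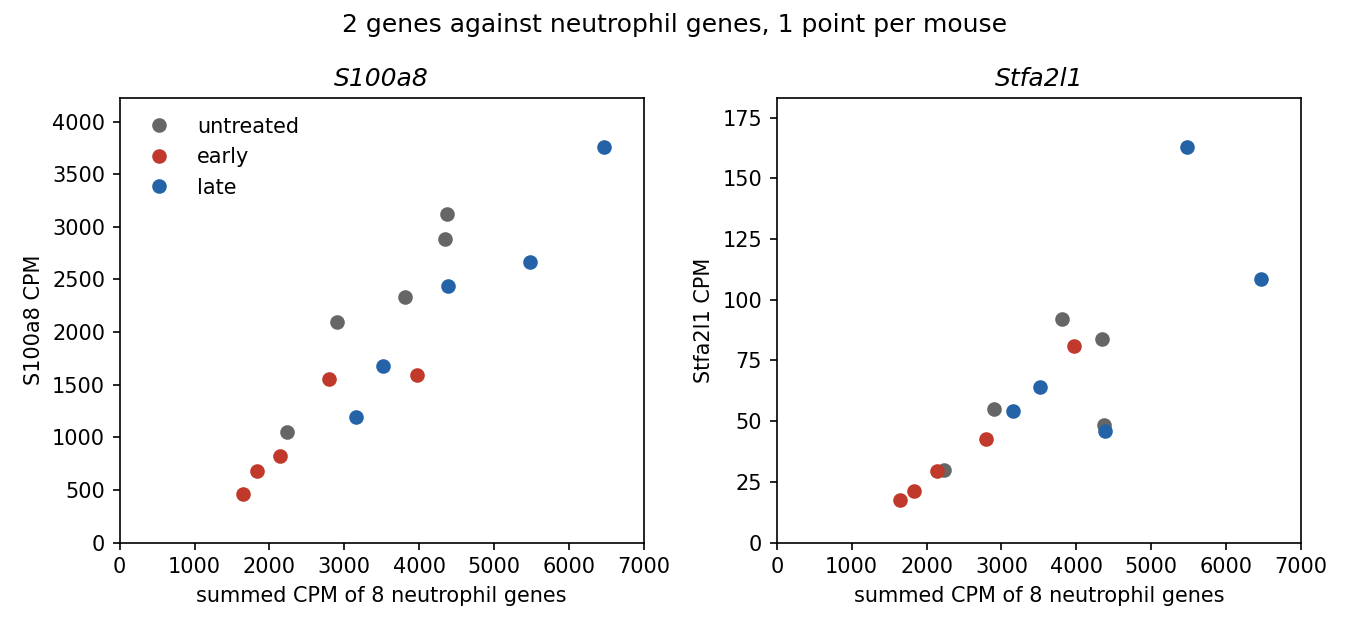
CPM of S100a8 (left) and Stfa2l1 (right) on the vertical axes against the summed CPM of 8 neutrophil genes on the horizontal axis, with 1 point per mouse colored by group. Early 1, early 2 and early 4 lie at the lower left of both plots, and late 4, at 6471 CPM of neutrophil genes, is the highest in S100a8.

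Other S100 genes had log2 fold changes of the opposite sign under TMM scaling. Of 12 listed, 5 were tested in late against early mice, all 5 were negative (median -0.36) and 0 were called. With library totals in place of TMM the median of all genes was 0.86, a shift larger than most of these values, and the sign of this list is therefore tied to TMM. S100a10, which binds annexin A2, was 137 ± 9.78 CPM (SD, n = 5) in late and 173 ± 26.5 CPM (SD, n = 5) in early mice, a log2 fold change of -0.31 (SE 0.13, edgeR adjusted p = 0.168), and S100a1 and S100a13 stood at -0.34 and -0.53. Of the other stefin and cystatin genes 7 were tested, with 5 positive, a median of 0.70 and 0 called. The most abundant, Cst3, Cstdc4 and Cstb, were positive. Cstdc4 stood at 1.32 (SE 0.36, edgeR adjusted p = 0.0546), Cstb, the stefin B gene of most tissues, stood at 0.70 (SE 0.22, edgeR adjusted p = 0.0821), and the secreted inhibitor Cst3 at 0.33 (SE 0.18, edgeR adjusted p = 0.281). Csta1, named here after its values were seen, had the opposite sign at -1.44 (SE 0.42, edgeR adjusted p = 0.0640), with means of 1.14 CPM in late and 2.94 CPM in early mice. The cysteine cathepsins that stefins inhibit had 0 of 9 called and a median of 0.16, with Ctsb at -0.37 (SE 0.27, edgeR adjusted p = 0.447) and Ctss at 0.43 (SE 0.23, edgeR adjusted p = 0.278). Against untreated mice, Ctsc and Ctsh rose in late mice by 0.74 (SE 0.16, edgeR adjusted p = 0.0293) and 0.42 (SE 0.10, edgeR adjusted p = 0.0468), and Ctsf fell by 1.47 (SE 0.34, edgeR adjusted p = 0.0403).

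Among 8 receptors and co-receptors that have been linked to S100 proteins, 5 were positive from early to late mice (median 0.67). There Cd68 rose by 0.82 (SE 0.16, edgeR adjusted p = 0.0178) and Cd36, a scavenger receptor, fell by 2.04 (SE 0.34, edgeR adjusted p = 0.0126). The receptors Tlr4 and Ager, named here after their values were seen, stood at 0.90 (SE 0.33, edgeR adjusted p = 0.121) and 0.79 (SE 0.21, edgeR adjusted p = 0.0517). Bsg, which is abundant on erythroid cells, fell by 1.07 from untreated to late mice (SE 0.23, edgeR adjusted p = 0.0311). Of the erythroid genes, Slc4a1, the anion exchanger of red cells, fell by 2.75 (SE 0.48, edgeR adjusted p = 0.0126) and Alas2, an enzyme of heme synthesis, fell by 2.18 (SE 0.44, edgeR adjusted p = 0.0215) from early to late mice, and their part in the other values was not tested. Of 8 intracellular partners 7 were positive from early to late mice, with Anxa11 called (0.82, SE 0.21, edgeR adjusted p = 0.0474) and Anxa2 at 0.87 (SE 0.29, edgeR adjusted p = 0.0903). Of 9 myeloid transcription factors 7 were positive (median 0.69) and 0 called, with Spi1, which encodes PU.1, at 0.79 (SE 0.25, edgeR adjusted p = 0.0780), Cebpb at 0.80 (SE 0.30, edgeR adjusted p = 0.134) and Stat3 at 0.69 (SE 0.19, edgeR adjusted p = 0.0516). The platelet, T cell and B cell lists had 0 genes called from early to late mice, with medians of -0.44, -0.27 and -0.37. The immature neutrophil, keratinocyte and sebaceous lists also had 0 genes called there, of 6, 3 and 7 tested.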

How the data were processed

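Paired reads of 150 bases were obtained from the blood RNA of 15 mice. The deposited counts are raw read pairs per gene, which the authors made with STAR 2.7.9 on GRCm39, SAMtools 1.7 and HTSeq 0.13.5. The submitters' processing notes also list mm10, and the annotation release and strand setting are not given in the sources used here, so that genes overlapping on opposite strands cannot be told apart. Pairs outside genes (12.6 to 30.8%) and pairs aligned to several places (44.1 to 75.2%) were left out of library sizes and tests. Both shares separated late from early mice. Pairs outside genes were 22.6 to 30.8% in late and 12.6 to 17.9% in early mice. Pairs aligned to several places were 44.1 to 57.9% in late and 66.4 to 75.2% in early mice. Identifiers were matched to GENCODE M39 (54749 of 55416). Each pair of groups was fitted alone with edgeR 4.0.16 (R 4.3.3) on the counts, after filterByExpr and TMM scaling, with a quasi-likelihood test and Benjamini-Hochberg adjustment over all genes tested (threshold 0.05). This test was checked on simulated counts that lacked the difference in hemoglobin share between groups. The planted changes were larger than those of the members, so the check says little about these comparisons. DESeq2 1.42.0 was the alternative. Log2 ratios to S100a8 (0.5 added to each count) entered exact permutation tests, two-sided, in SciPy 1.17.1. Separate mice are the replicates. Groups and replicate numbers follow the labels. Members and lists were chosen with earlier results of these data known. Named from each list were the 3 tested genes of highest mean CPM and any called gene where at most 5 were called. Alternatives included other scalings, filters, a replicate block and leaving out libraries. Total counts set the precision of low genes. Promoter sequences are from RefSeq (GRCm38.p6). No protein sequence was used here.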

Additional observations from a re-analysis of the deposited data

Results flagged for a closer look

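Among 51 groups of 5 values checked for a library far from the others, 3 stood out, and chance alone flags about 1 in 20 such groups. All 3 concern S100a4, at 6 counts or fewer. Untreated 1 had 1.20 CPM of S100a4 from 3 counts, against 0 to 0.337 CPM in the other untreated mice, and its log2 ratio to S100a8 was -10.54, against -13.54 to -12.84. Late 4 had 0.442 CPM from 6 counts, against 0.160 to 0.218 CPM in the other late mice.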

How the results depend on the processing

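From early to late mice edgeR called 1 of 8 members, and the number moved with the setting. So did the share of all genes called higher, which was 2.50% in the edgeR fit reported and is given in parentheses. The number was 4 with DESeq2 (5.78%), 0 with RLE size factors (1.51%), 6 of 9 with no filter on low counts (3.09%), 8 with library totals in place of TMM (67.0%), 0 without late 2 and late 3, which are poor in 18S sequence (0.0298%), and 0 to 6 when each mouse was left out in turn (6 without early 3, 7.73%). With the replicate block it was 3 (S100a11, Stfa2 and Stfa2l1, 2.76%), but same-numbered mice did not deviate together in every pair (correlations of -0.18 to 0.46 from early to late mice), so the numbers were not taken to pair the mice. Library totals raised the median of all genes by 0.85, to 0.86, and relative to it the member median was 1.05, against 1.10 with TMM. From untreated to late mice 0 members were called, except 6 with library totals, where 55.2% of all genes were called higher, the median of all genes was 0.91 and the members lay 0.25 above it. In that comparison S100a9 turned positive with library totals (0.71), with no filter (0.0015) and without the libraries poor in 18S sequence (0.22). With each mouse left out it ran from -0.26 to 0.11, S100a8 from -0.22 to 0.18 and S100a6 from -0.065 to 0.24. The cause was not tested. From untreated to early mice 0 members were called under every alternative run. The ratios to S100a8 also had 0 past the threshold under every alternative, which says nothing of their stability, since the design all but fixed that count. In the sign-flip test of same-numbered mice 5 pairs cannot go below p = 0.0625 (exact permutation test). The values of S100a4, Stfa3 and, in early mice, Stfa2 rest on few counts and are imprecise.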
